A study of Mus musculus with 10 samples.

Results

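Transcripts of the machinery for endoplasmic reticulum associated degradation (ERAD) were examined in pancreatic islets of mice fed western diet or standard chow. The set comprises 42 genes named for their part in substrate recognition, ubiquitin ligation, extraction and shuttling, and all 42 were found by symbol among the 27665 genes of the deposited table. RNA came from whole islets of 10 male C57BL/6J mice, an inbred strain, and no engineered allele is named for either group. They were 8 to 10 weeks of age when the diet began and received it for 4 weeks, with 5 mice and 5 libraries per diet. All chow mice came from cage 3, 4 western diet mice came from cage 4 and 1 from cage 2, so diet and cage cannot be told apart. Whole islets mix several cell types, and fewer cells of a type cannot be told apart from less RNA per cell.

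ERAD removes proteins that fail to fold in the endoplasmic reticulum (ER). Lectins and mannosidases in the lumen mark misfolded glycoproteins, membrane complexes built around a ubiquitin ligase such as HRD1 move them through the membrane and tag them, and the ATPase p97 pulls them into the cytosol, where shuttling factors hand them to the proteasome. Beta cells fold large amounts of proinsulin, and misfolded proinsulin is a known ERAD substrate. Many ERAD genes are targets of the unfolded protein response, whose sensor IRE1 alpha is named in the series title.

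Library totals ranged from 16532518 to 23902681 counts, and every member had at least 76 reads in every library. The beta cell markers were abundant, with a summed level of 241190 to 275851 CPM (read counts scaled to a common library size) on western diet and 230050 to 266087 CPM on chow, and all 8 were detected. Of these, Iapp (log2 fold change 0.19) and G6pc2 (0.47) rose and Slc2a2 (-0.54) fell. A few markers of other cell types fell. Krt19 (-2.64) and Muc1 (-1.01) were 2 of 6 tested duct markers, both under 4 CPM on average in each diet. Kdr (-0.28) was 1 of 7 for endothelium and C1qa (-0.51) 1 of 7 for macrophages. Pdgfrb (-0.44) was 1 of 6 for stellate cells and fibroblasts. In each of those lists the other tested markers were not called, and their log2 fold changes lay on both sides of 0. Of the alpha, delta and PP cell markers 0 of 7 were called. Acinar markers varied widely in both groups, from 795 to 5796 CPM on western diet and from 681 to 2815 CPM on chow, with 0 of 10 tested markers called, and all 7 genes called below were called again with the mean of these markers as a covariate. Of the immediate early and heat shock genes, which respond quickly to stress and to tissue handling, 11 of 12 fell on western diet, with sums of 8948 to 11080 CPM against 16115 to 20008 CPM on chow. The part of these markers and early genes in the results below was not tested.

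On western diet 7 of the 42 ERAD genes rose and 0 fell, at a Benjamini-Hochberg adjusted p under 0.05 over 15104 genes in edgeR. They encode the mannosidase-like proteins EDEM2 and EDEM3, the HRD1 partners SEL1L and FAM8A1, the ligase RNF185, the p97 adaptor UBXN4 and p97 itself. The increases were small, between 1.18-fold and 1.31-fold. The 7 genes are 16.7% of the members, beside 5.27% of all tested genes called higher and 5.5% called lower. Abundance bears on that background, since 9.47% were called higher among the 6873 tested genes of at least 21.5 CPM, the 10th percentile of the members. The members' median log2 fold change was 0.08, against 0.01 over all tested genes, and 35 of 42 (83.3%) were above 0, against 51.0% of all tested genes. Among the 6873 more abundant genes the median was 0.03 and 57.6% were above 0. At an unadjusted p under 0.05 there were 16 members higher and 2 lower, with 13.7% and 13.2% of all tested genes. DESeq2 called 9 members higher and 1 lower, with 6.31% and 7.43% of all tested genes. The authors' deposited table has 10 members higher and 1 lower at an adjusted p under 0.05, and the 10 include all 7. Its shares are 3.39% and 3.68% of 27577 genes with a p-value, a wider set than the 15104 genes tested here. The plot of fold changes by role shows the 7 genes spread over 4 roles. Roles hold only 1 to 10 genes each, and no share within a role was tested against all genes.

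**Figure D1:**
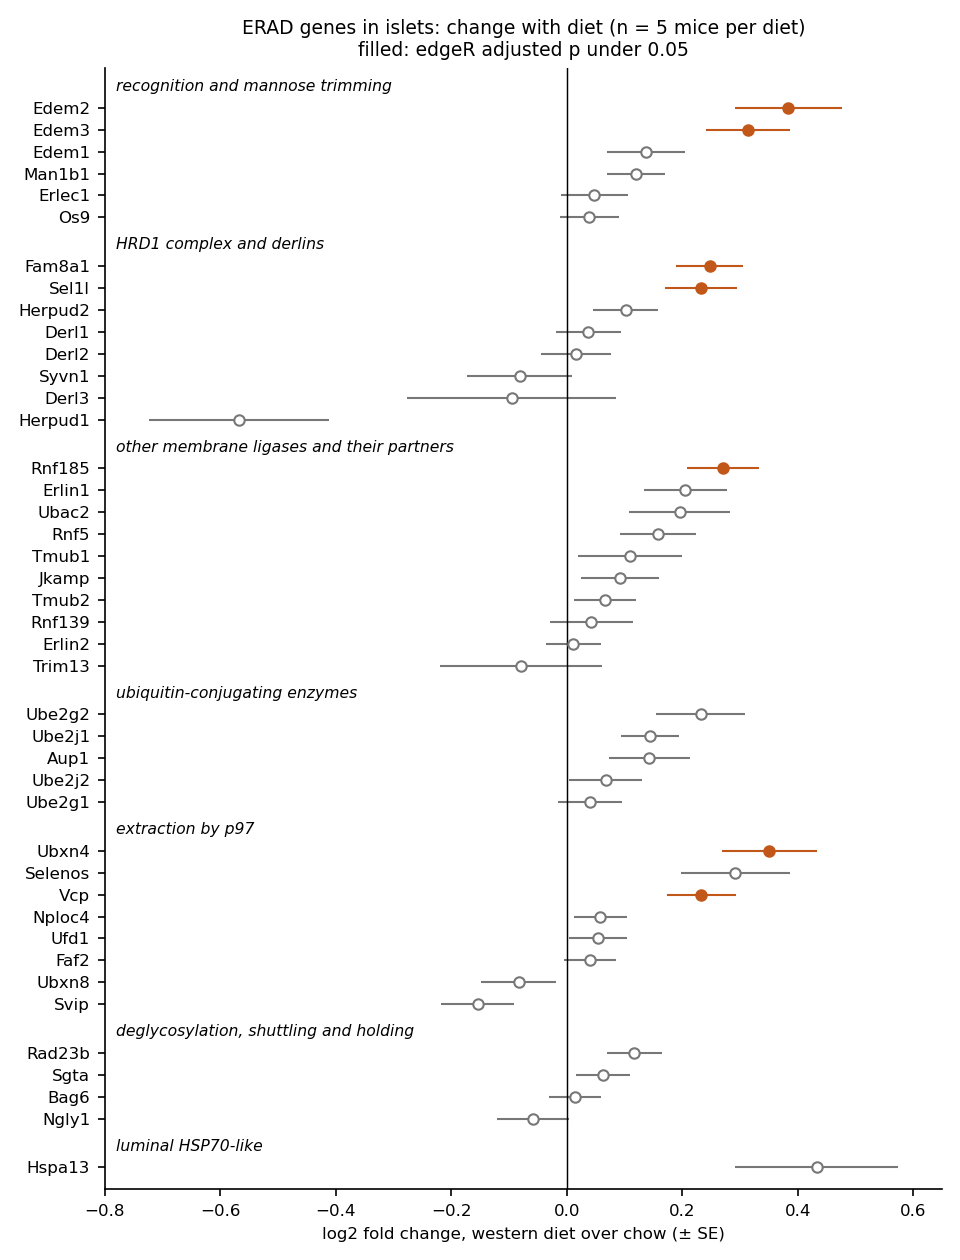
Log2 fold change of western diet over chow with its SE for each of the 42 ERAD genes, grouped by role, from 5 mice per diet. Filled points passed an adjusted p under 0.05; they lie between 0.23 and 0.38, and Herpud1 lies lowest at -0.57.

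The lectin and mannosidase genes, which select glycoproteins for disposal, were all above 0 and 2 of 6 rose (33.3%, beside 5.27% of all tested genes). Edem2 (ENSMUSG00000038312, GRCm38 chromosome 2, 155701677 to 155729475) encodes the protein that starts mannose trimming of ERAD substrates. Its levels in chow mice 1 to 5 were 90.3, 131, 109.8, 119 and 109 CPM. On western diet they were 143, 129.7, 164 and 158 CPM in cage 4 mice 1, 2, 4 and 5, and 136 CPM in the cage 2 mouse. Only chow mouse 2 reached into the western diet range. Edem2 rose by 0.38 ± 0.09 on the log2 scale (SE, edgeR adjusted p = 0.02), the largest increase among the 7. It was not called without western diet cage 4 mouse 4 (0.0514) or mouse 5 (0.0515), or without chow mouse 3 (0.0506).

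Edem3 (ENSMUSG00000043019, chromosome 1, 151755371 to 151822051) encodes a related protein that trims mannose further. The chow mice had 117, 149, 119, 144 and 133 CPM. The western diet mice had 156, 158, 176 and 181 CPM in cage 4 and 151 CPM in cage 2. The lowest western diet mouse was above the highest chow mouse. The log2 fold change was 0.31 ± 0.07 (SE, edgeR adjusted p = 0.0117). Edem3 and Fam8a1 were the only 2 of 42 members whose mice separated by diet in this direction. That share is near the 4.44% of all tested genes that did so, with 8.85% of all tested genes in either direction. Separation of the mice therefore does not set the members apart from other genes.

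Edem1, whose product delivers substrates to the HRD1 complex, was not called. It had 103, 137, 120.5, 120.4 and 117 CPM on chow, and 127, 124, 136, 147 and, in cage 2, 124 CPM on western diet. The groups overlapped, and the log2 difference was 0.14 ± 0.07 (SE, edgeR adjusted p = 0.204). Man1b1, which encodes ER mannosidase I, was close to it at 0.12 ± 0.05 (adjusted p = 0.129).

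The lectins that read the trimmed glycans showed smaller differences. Os9 had 297, 335, 278, 302 and 289 CPM on chow, and 315, 310.2, 304, 317 and, in cage 2, 297 CPM on western diet. Erlec1 had 86.7, 85.1, 87.4, 83.1 and 89.1 CPM on chow, and 78.5, 91.4, 85.6, 102 and, in cage 2, 89.2 CPM on western diet. The diets overlapped in both genes, with log2 fold changes of 0.04 ± 0.05 for Os9 (SE, edgeR adjusted p = 0.672) and 0.05 ± 0.06 for Erlec1 (0.643).

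The HRD1 complex showed 2 increases among 8 genes (25.0%, beside 5.27% of all tested genes) and the widest span of values. Sel1l (ENSMUSG00000020964, chromosome 12, 91806043 to 91849157) encodes the luminal adaptor that stabilises HRD1 and receives substrates. Its chow levels were 175, 207, 178, 183 and 162 CPM. Its western diet levels were 207, 204, 228 and 229 CPM in cage 4 and 196 CPM in cage 2. Chow mouse 2 lay within the western diet range, and the other chow mice lay below it. Sel1l rose by 0.23 ± 0.06 on the log2 scale (SE, edgeR adjusted p = 0.0233), but was not called without western diet cage 4 mouse 4 (0.0702) or mouse 5 (0.0631), or without chow mouse 1 (0.0631), mouse 3 (0.0589) or mouse 5 (0.0585).

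Fam8a1 (ENSMUSG00000069237, chromosome 13, 46669522 to 46678056) encodes a membrane protein that helps assemble the HRD1 complex. The chow mice had 61.1, 55.9, 59.9, 55.9 and 69.1 CPM. The western diet mice had 70.9, 70.5, 71.1 and 70.3 CPM in cage 4 and 75.7 CPM in cage 2. All western diet mice were above all chow mice, although chow mouse 5 came close. The log2 fold change was 0.25 ± 0.06 (SE, edgeR adjusted p = 0.0117).

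Syvn1 encodes the ligase HRD1 itself and was not called. Its chow levels were 169, 167, 188, 152 and 144 CPM. Its western diet levels were 159, 141, 173 and 174 CPM in cage 4 and 128 CPM in cage 2. The groups overlapped throughout, and the log2 difference was -0.08 ± 0.09 (SE, edgeR adjusted p = 0.614). The complex had a called increase for the adaptor gene and none for the ligase gene, and the difference between these 2 genes was not tested.

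Herpud1 (ENSMUSG00000031770, chromosome 8, 94386438 to 94395377) encodes a stress-induced scaffold of the HRD1 complex that is itself turned over quickly. Its chow levels were 929.9, 681, 779, 543 and 568 CPM. Its western diet levels were 513, 489, 492 and 487 CPM in cage 4 and 383 CPM in cage 2. Every western diet mouse was below every chow mouse, which held for 1 of 42 members, beside 4.42% of all tested genes. The chow mice differed widely among themselves. Western diet mice averaged 473 ± 51.2 CPM and chow mice 700.2 ± 159 CPM (SD, 5 mice each). The log2 fold change was -0.57 ± 0.16 (SE), the largest difference of any member, and it just missed the threshold (edgeR adjusted p = 0.0512). Over the alternatives the adjusted p ranged from 0.00638 with DESeq2 to 0.0999 without chow mouse 3. It passed without chow mouse 4 (0.0245) or mouse 5 (0.0392), and without chow mouse 1 and the cage 2 mouse together (0.037), where the difference was -0.38. In the authors' deposited table Herpud1 is lower, with an adjusted p of 0.007. Immediate early and heat shock genes were lower in the same libraries, as given above. Among chow mice both measures were highest in mouse 1, at 929.9 CPM for Herpud1 and 20008 CPM for that list, and their relation was not tested.

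**Figure D2:**
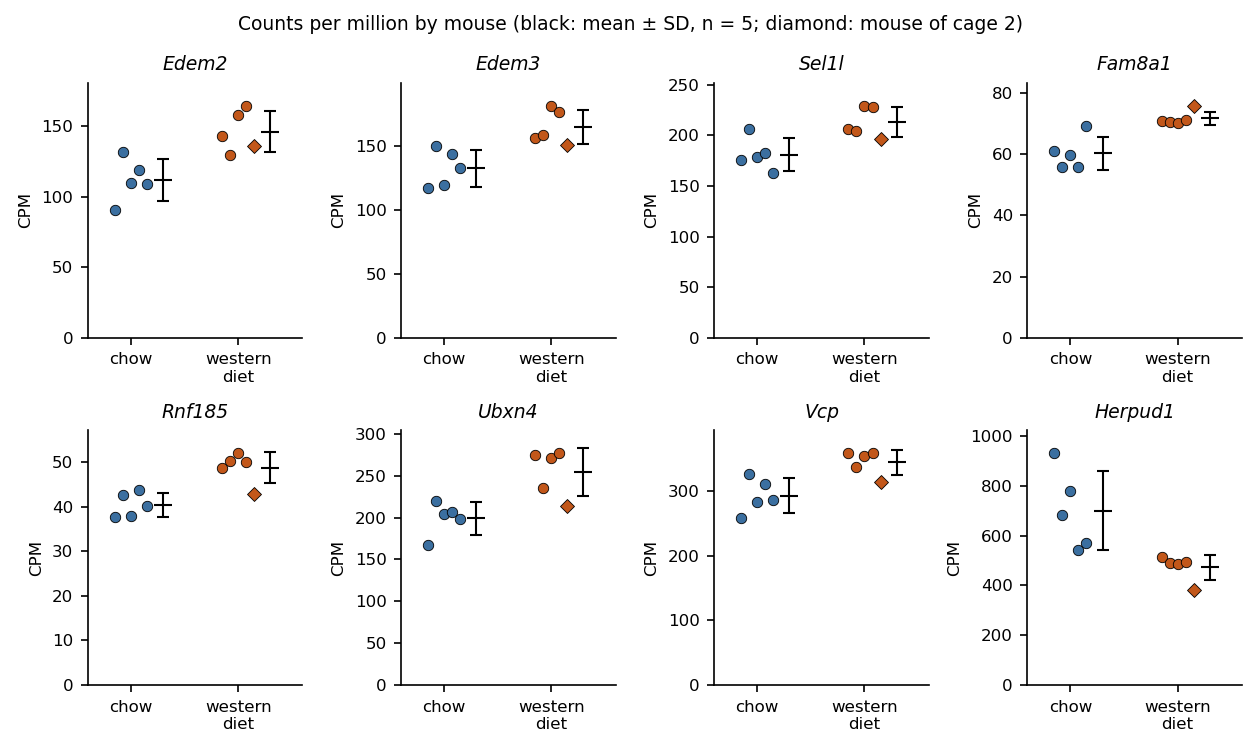
CPM in each mouse for the 7 ERAD genes that rose and for Herpud1, with mean and SD beside the points (n = 5 per diet); the diamond is the western diet mouse of cage 2. For Edem3 and Fam8a1 all western diet mice lie above all chow mice, and for Herpud1 all lie below, from 383 to 513 against 543 to 929.9 CPM.

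The other members of the complex were not called. Herpud2, the less studied relative of Herpud1, had 64.9 to 73.6 CPM on chow and 65.7 to 78.9 CPM on western diet. Of the derlins, rhomboid-like proteins thought to form the path through the membrane, Derl1 and Derl2 stayed close to 0 on the log2 scale. Derl1 had 174, 208, 191, 194 and 183 CPM on chow, and 212, 188, 202, 194 and, in cage 2, 179 CPM on western diet. Derl2 had 96.7, 118, 106, 100.02 and 98.3 CPM on chow, and 111, 98.2, 105, 113 and, in cage 2, 97.6 CPM on western diet. Their log2 fold changes were 0.04 ± 0.06 (SE, edgeR adjusted p = 0.722) and 0.02 ± 0.06 (0.902). Derl3, the form known from secretory tissues, had 19.5, 22.7, 18.1, 10.5 and 13.02 CPM on chow, and 13.6, 15.9, 17.3, 16.9 and, in cage 2, 14.9 CPM on western diet. Chow mice spread over a wider range for Derl3 than western diet mice, and the groups overlapped (-0.10 ± 0.18 SE, adjusted p = 0.789).

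The promoters were searched for the elements that link ERAD genes to stress signalling, since XBP1 and ATF6 act through such elements. RefSeq windows on GRCm38.p6, from 250 bases before to 50 after the transcript start, were at hand for 32 of the 42 members. On both strands the search took the ER stress element ERSE (CCAAT, any 9 bases, then CCACG), ERSE-II (ATTGG, any base, then CCACG), the unfolded protein response element UPRE (TGACGTGG), the cAMP response element CRE (TGACGTCA) and the ATF4-type element CARE (TGATGNAA). CRE and UPRE share their first 6 bases, and ERSE and ERSE-II both end in CCACG. Exact matches to ERSE, ERSE-II or UPRE were in 5 members, and 141 of 11032 tested genes with a window held such a match, a share of 1.28%. The 250 bases before the start are shown for these 5, with matches to any of the 5 motifs in capitals.

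Syvn1 promoter: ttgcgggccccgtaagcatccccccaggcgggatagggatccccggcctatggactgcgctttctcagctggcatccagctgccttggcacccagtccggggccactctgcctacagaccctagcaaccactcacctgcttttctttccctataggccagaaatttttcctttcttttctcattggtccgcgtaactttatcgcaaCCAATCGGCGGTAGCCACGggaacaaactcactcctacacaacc
Derl3 promoter: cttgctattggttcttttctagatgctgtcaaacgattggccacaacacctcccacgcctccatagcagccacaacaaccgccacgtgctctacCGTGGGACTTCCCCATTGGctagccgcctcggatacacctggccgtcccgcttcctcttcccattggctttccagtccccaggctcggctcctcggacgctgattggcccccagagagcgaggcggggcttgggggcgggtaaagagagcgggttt
Herpud1 promoter: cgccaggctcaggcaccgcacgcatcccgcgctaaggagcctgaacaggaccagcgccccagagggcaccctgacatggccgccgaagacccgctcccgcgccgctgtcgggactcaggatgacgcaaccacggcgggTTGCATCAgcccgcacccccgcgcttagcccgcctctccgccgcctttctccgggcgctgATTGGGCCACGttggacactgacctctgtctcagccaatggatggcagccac
Vcp promoter: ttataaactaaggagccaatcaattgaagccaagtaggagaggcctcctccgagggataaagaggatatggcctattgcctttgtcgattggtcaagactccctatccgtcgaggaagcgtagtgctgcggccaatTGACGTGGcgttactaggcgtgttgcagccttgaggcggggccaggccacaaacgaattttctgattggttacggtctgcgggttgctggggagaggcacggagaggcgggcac
Ube2j1 promoter: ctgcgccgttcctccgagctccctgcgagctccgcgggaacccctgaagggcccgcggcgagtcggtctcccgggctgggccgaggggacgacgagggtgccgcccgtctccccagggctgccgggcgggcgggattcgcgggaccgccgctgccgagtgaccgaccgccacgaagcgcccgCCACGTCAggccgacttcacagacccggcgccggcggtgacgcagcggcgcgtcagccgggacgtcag

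The Syvn1 stretch (chr19:6046326-6046575, plus strand) held an ERSE from 44 to 26 bases before the start. The Derl3 stretch (chr10:75893148-75893397, plus strand) held an ERSE on the reverse strand. Herpud1 (chr8:94386179-94386428, plus strand) held an ERSE-II from 52 to 42 bases before the start, which was in 0.0816% of tested genes, and a CARE on the reverse strand further upstream. Vcp (chr4:43000508-43000757, minus strand) and Ube2j1 (chr4:33031130-33031379, plus strand) held a UPRE, found in 1.04% of tested genes. Of these 5 genes 1, Vcp, was called higher, and their log2 fold changes ran from -0.57 for Herpud1 to 0.23 for Vcp. Of the 27 members whose window held none of the 3 elements, 6 were called higher, among them Edem2, Edem3 and Sel1l. Both counts stand beside 16.7% of all 42 members and 5.27% of all tested genes called higher. As shares, 1 of 5 and 6 of 27 are close to each other, and no difference between the 2 sets was tested. The remaining matches were a CRE in Sgta and a CARE in Faf2. An exact match to these letters is not evidence of binding, and none says only that the letters are not in this window.

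Ligases outside the HRD1 complex, with the proteins that recruit or support them, held 10 genes, of which 1 rose (10.0%). That share is near the 9.47% called higher among the 6873 more abundant tested genes, beside 5.27% of all tested genes. Rnf185 (ENSMUSG00000020448, chromosome 11, 3415982 to 3452363) encodes a RING ligase of the ER membrane. The chow mice had 37.7, 42.6, 38.0, 43.7 and 40.2 CPM. The western diet mice had 48.8, 50.3, 50.2 and 52.0 CPM in cage 4 and 42.9 CPM in cage 2. The cage 4 mice were all above the chow mice, and the cage 2 mouse fell inside the chow range. The log2 fold change was 0.27 ± 0.06 (SE, edgeR adjusted p = 0.011), and the call held in all 21 alternatives, as it did for Edem3.

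The other 9 genes of this group were not called. Erlin1, a subunit of a ring that brings the ligase RNF170 to inositol trisphosphate receptors, was at 0.21 ± 0.07 (SE, edgeR adjusted p = 0.0727), and its partner Erlin2 at 0.01 ± 0.05 (0.907). Ubac2, which assists the ligase gp78, was at 0.20 ± 0.09 (0.156). Rnf5, the closest relative of Rnf185, was at 0.16 ± 0.07 (0.127), but 24.7% of its exon bases lie under exons of an antisense gene, so its reads are uncertain. Tmub1 and Tmub2, membrane proteins with a ubiquitin-like domain, were at 0.11 and 0.07, the scaffold gene Jkamp was at 0.09, and the ligase genes Rnf139 and Trim13 were at 0.04 and -0.08. Trim13 was the least abundant member, at 4.503 to 6.31 CPM. For Rnf139, 22.3% of exon bases are shared with Tatdn1 on the opposite strand and 3.86% with Gm49356 on the same strand.

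None of the 5 genes of ubiquitin conjugation passed the test (edgeR, 0 higher and 0 lower, 2 at an unadjusted p under 0.05, and 0 called by DESeq2), and all 5 were above 0. A count of 0 among 5 genes cannot be told apart from the 5.27% of all tested genes called higher. Ube2g2, the conjugating enzyme recruited by gp78, was at 45.3 to 62.2 CPM on chow and 57.8 to 69.9 CPM on western diet, higher by 0.23 ± 0.08 log2 units (SE, edgeR adjusted p = 0.062). The call was made without the cage 2 mouse (0.028), without chow mouse 4 (0.038), without the cage 2 mouse and chow mouse 1 together (0.0418) and with the acinar covariate (0.0449). Ube2j1, the membrane-anchored enzyme of the HRD1 complex, was at 116 to 124 CPM on chow and 121 to 141 CPM on western diet (0.15 ± 0.05 SE, adjusted p = 0.0697). Among the alternatives it was called only without the cage 2 mouse (0.0281), and the authors' deposited table has it higher (0.0462). Aup1, which recruits Ube2g2 to membranes and lipid droplets, was at 0.14, Ube2j2 at 0.07 and Ube2g1 at 0.04. Exons of Htra2 on the opposite strand cover 23.0% of the exon bases of Aup1. For Ube2g2, 6.83% of exon bases are shared with Gm49325 and 3.46% with Mir1930, both on the same strand.

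Among the 8 genes of extraction 2 rose (25.0%, beside 5.27% of all tested genes), the ATPase gene and a membrane adaptor. Vcp (ENSMUSG00000028452, chromosome 4, 42979963 to 43000507) encodes p97. Its chow levels were 258, 327, 283, 311 and 286 CPM. Its western diet levels were 358, 338, 358 and 354 CPM in cage 4 and 314 CPM in cage 2. The cage 4 mice were above all chow mice, and the cage 2 mouse was inside the chow range. Vcp rose by 0.23 ± 0.06 on the log2 scale (SE, edgeR adjusted p = 0.0197), but was not called without western diet cage 4 mouse 4 (0.0551) or without chow mouse 1 (0.0631) or mouse 3 (0.0581). Exons of a gene on the opposite strand overlap 7.26% of its exon bases.

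Ubxn4 (ENSMUSG00000026353, chromosome 1, 128243964 to 128279378) encodes erasin, which holds p97 at the ER membrane. The chow mice had 167, 220.3, 205, 206 and 198 CPM. The western diet mice had 275, 235, 277 and 271 CPM in cage 4 and 214 CPM in cage 2. As for Vcp, only the cage 2 mouse overlapped with chow. The log2 fold change was 0.35 ± 0.08 (SE, edgeR adjusted p = 0.0145).

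The cofactors that let p97 bind ubiquitin chains were not called. Ufd1 had 58.6, 62.4, 61.0, 64.8 and 63.8 CPM on chow, and 63.0, 61.4, 64.4, 70.3 and, in cage 2, 63.5 CPM on western diet. Nploc4 had 79.9, 88.5, 86.4, 81.1 and 81.3 CPM on chow, and 86.1, 88.0, 87.4, 87.7 and, in cage 2, 85.3 CPM on western diet. Their log2 fold changes were 0.05 ± 0.05 (SE, edgeR adjusted p = 0.531) and 0.06 ± 0.05 (0.443). Selenos, the selenoprotein that links p97 to derlins, was at 0.29 ± 0.09 (adjusted p = 0.0687). Leaving out the cage 2 mouse (0.017) or chow mouse 2 (0.0202) brought it past the threshold, as did DESeq2 (0.021) and the acinar covariate (0.0215). Svip, a small inhibitor of ERAD that also binds p97, was at -0.15 ± 0.06 (0.12), with 89.9 to 113 CPM on chow and 81.3 to 97.8 CPM on western diet. Faf2 and Ubxn8, further membrane adaptors of p97, were at 0.04 and -0.08.

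Genes acting in the cytosol after extraction showed 0 calls among 4 (edgeR, 1 at an unadjusted p under 0.05, and 0 called by DESeq2). With 4 genes this cannot be told apart from the 5.27% of all tested genes called higher. Rad23b, which carries ubiquitinated proteins to the proteasome, was at 0.12 ± 0.05 (SE, edgeR adjusted p = 0.123). Sgta and Bag6, which hold exposed membrane segments soluble, were at 0.06 and 0.01, and Ngly1, which removes N-glycans, was at -0.06. Hspa13, an HSP70-like ATPase of the ER, had the largest positive difference of any member without being called. It had 137, 213, 166, 202 and 183 CPM on chow, and 252, 239, 280.1, 261 and, in cage 2, 185 CPM on western diet. The cage 2 mouse lay inside the chow range and the cage 4 mice lay above it (0.43 ± 0.14 SE, edgeR adjusted p = 0.0841). Hspa13 was called in 6 of 21 alternatives, among them DESeq2 (0.0267), limma-voom (0.032) and the fit without the cage 2 mouse (0.0168).

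The same libraries lay at the edges of many genes. Chow mouse 1 had the lowest value of all 10 mice for 20 of 42 genes, and the lowest chow value for 5 of the 7 genes that rose. Chow mouse 2 had the highest chow value for 22 of 42 genes. The cage 2 mouse had the lowest western diet value for 20 genes, 5 of them among the 7. Ranks were counted for the 42 members only, so whether these libraries stand out in the same way over all genes was not tested. With the cage 2 mouse left out, which leaves 1 cage per diet, 11 members were called higher, beside 6.01% of all tested genes. Without western diet cage 4 mouse 4, or without chow mouse 3, 4 were, beside 2.61% and 2.81% of all tested genes. The summed level of all 42 members averaged 4649 ± 242 CPM in western diet mice and 4478 ± 177 CPM in chow mice (SD, 5 mice each). Without Herpud1 the sum averaged 4177 ± 197 CPM in western diet mice against 3778 ± 199 CPM in chow mice (SD, 5 mice each). The ranges of this smaller sum overlapped, at 3876 to 4357 CPM and 3537 to 4071 CPM. Herpud1 is the member with the largest fall, so leaving it out widens the difference by construction.

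**Figure D3:**
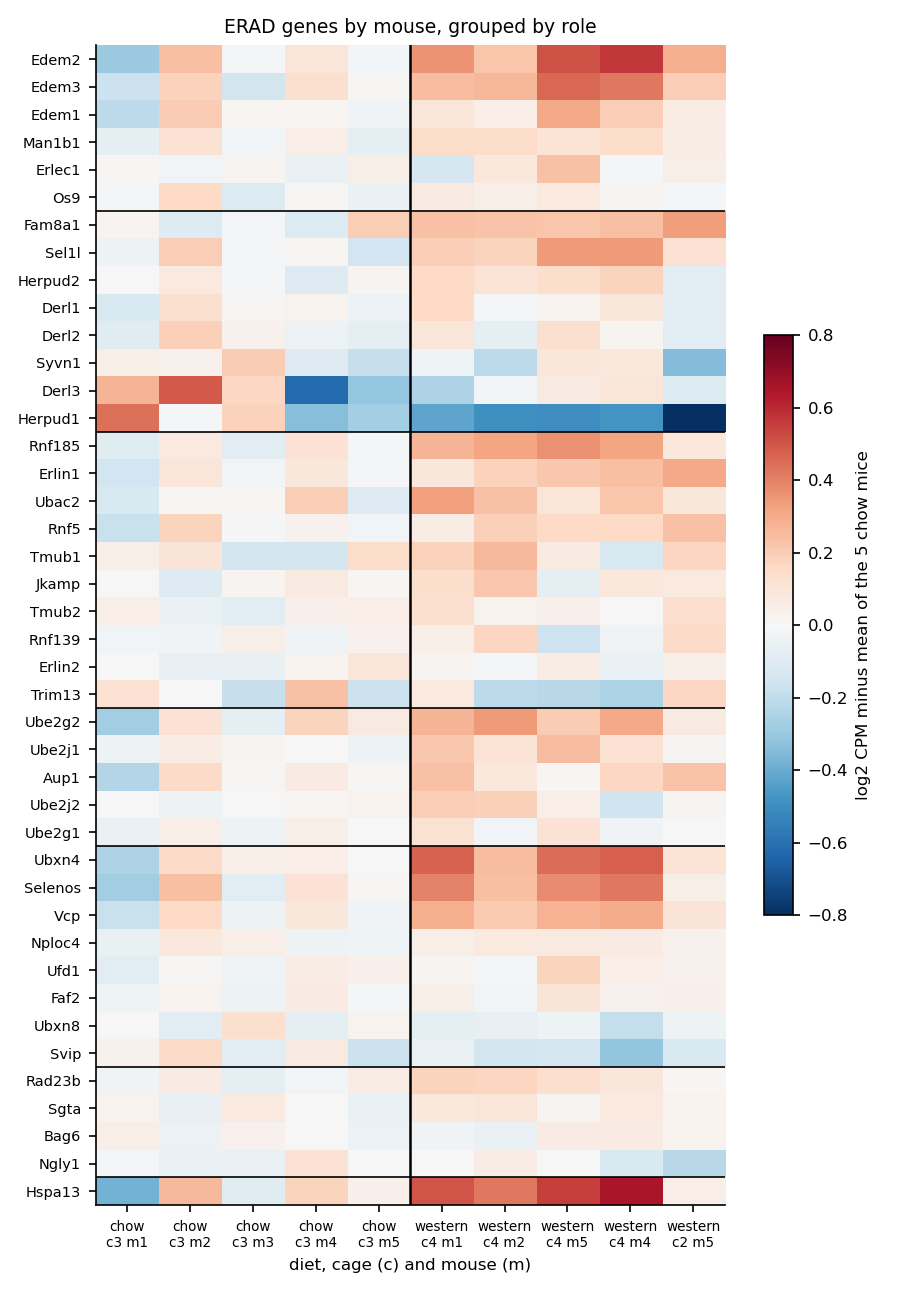
Log2 CPM of each ERAD gene in each mouse minus the mean of the 5 chow mice, with genes grouped by role and a vertical line between diets; red is above the chow mean and blue below. Chow mouse 1 is the lowest of all 10 mice in 20 of 42 genes, and Herpud1 is blue in all western diet mice.

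Levels of different genes were compared per length, as the authors' FPKM (fragments scaled by gene length and library size). Herpud1 was the most abundant member at 301 ± 68.1 FPKM on chow against 203 ± 21.9 FPKM on western diet (SD, 5 mice each). Os9 followed with 114 ± 8.25 and 117 ± 2.99, then Selenos with 73.5 ± 10.00 and 89.9 ± 9.11, and Vcp with 60.5 ± 5.53 and 71.0 ± 3.803. In this order 32 of 41 pairs of neighbours on chow, and 26 of 41 on western diet, had means closer than the sum of their SD. Within the HRD1 complex Syvn1 had 34.4 ± 3.59 FPKM on chow and Sel1l 21.2 ± 1.91. At the low end Trim13 had 3.28 ± 0.412 and Erlin1 3.99 ± 0.283 on chow. Over all 10 libraries 19 members were at 20 FPKM or more and 11 below 10, and 41 were above the median tested gene at 4.18.

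**Figure D4:**
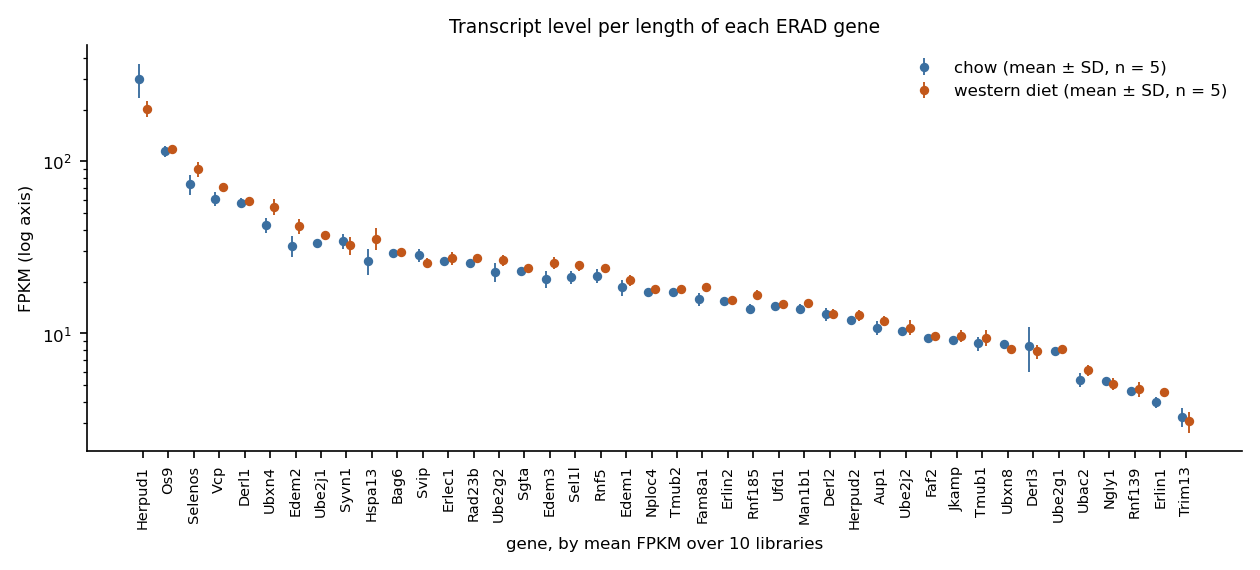
Mean FPKM with SD of each ERAD gene on chow and western diet (n = 5 mice per diet), on a log axis, ordered by the mean over 10 libraries. The order runs from Herpud1, at 301 on chow and 203 on western diet, to Trim13, at 3.28 on chow and 3.08 on western diet.

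Ratios within pairs of related genes, which do not depend on library scaling, show how members differ from their relatives. The 12 pairs were chosen after the values of single genes had been seen, so the ratios are a description with no test. Edem2 relative to Edem1 was higher on western diet by 0.25 ± 0.04 on the log2 scale (SE, 5 mice per diet). Edem3 relative to Edem1 was higher by 0.18 ± 0.05 and Herpud2 relative to Herpud1 by 0.65 ± 0.14. In these 3 pairs the mice of the diets did not overlap, and each combines a gene that rose, or whose mice separated by diet, with a relative that was not called. Leaving out any 1 mouse gave 0.22 to 0.27 for Edem2 over Edem1, 0.14 to 0.20 for Edem3 over Edem1 and 0.54 to 0.72 for Herpud2 over Herpud1. Erlin1 over Erlin2 (0.19 ± 0.07) and Ube2g2 over Ube2g1 (0.20 ± 0.09) overlapped between diets. The remaining 7 pairs, among them all 3 pairs of derlins, overlapped as well, with differences of -0.0026 to 0.082. The Derl1 to Derl2 ratio differed by 0.02 ± 0.04, whereas the 2 ratios with Derl3 had SE of 0.22 and 0.19.

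**Figure D5:**
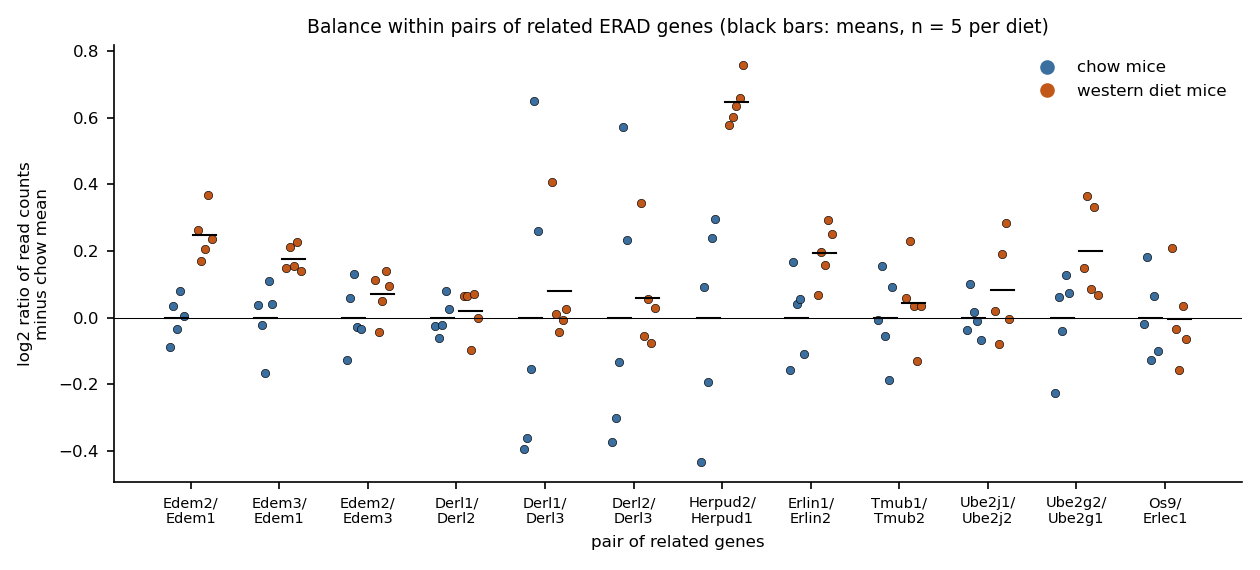
Log2 ratio of read counts within 12 pairs of related ERAD genes, shown per mouse as the difference from the chow mean of that pair; black bars are means of 5 mice. The western diet mice lie wholly above the chow mice for Edem2 over Edem1, Edem3 over Edem1 and Herpud2 over Herpud1, with mean differences of 0.25, 0.18 and 0.65.

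Further ERAD genes outside the member set went both ways. Among the 52 such genes that were tested, 8 rose and 3 fell (edgeR adjusted p under 0.05), with a median log2 fold change of 0.09. They are 15.4% and 5.77% of these genes, beside 5.27% and 5.5% of all tested genes, so the share that fell was near the background. The 6 with the smallest p-values among those that rose were the ubiquilin genes Ubqln4 (log2 fold change 0.32) and Ubqln1 (0.22), shuttling factors, the mannosidase gene Man1a (0.32), the ligase gene Rnf145 (0.21), the ER reductase gene Dnajc10 (0.23) and Txndc11 (0.23), a partner of EDEM proteins. Those that fell included Hspa5 (-0.78), which encodes the ER chaperone BiP, and Insig1 (-0.32), which holds the sterol sensor SCAP in the ER. Hspa5 averaged 4305 ± 720.4 CPM in chow mice and 2502 ± 328 CPM in western diet mice (SD, 5 mice each, edgeR adjusted p = 0.00727) with no overlap. The count of genes that rose was 4 without western diet cage 4 mouse 4, 5 without mouse 5 or without chow mouse 1, and 14 without chow mouse 2. In these fits 2.61%, 3.1%, 2.47% and 5.65% of all tested genes were called higher.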

How the data were processed

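RNA sequencing libraries of islets from 5 western diet and 5 chow mice were analysed from 1 deposited table. Read counts are given there for every gene as unnormalized whole numbers, per the file headers. The authors also deposited FPKM, which equal the count per kilobase of gene length over a library total that the authors scaled by 0.968 to 1.02, as worked out from the values. The log2 fold changes and p-values of the authors' own comparison stand in the same deposited table. The submitters' processing notes list STAR 2.5, HTSeq 2, DESeq2, mm10 and GRCm38. Libraries were made with an NEBNext Ultra kit, per the labels' protocols, and no source used here says whether counting used strand, so overlapping genes cannot be told apart. A further 10 columns of per-sample values were not used.

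The counts went into edgeR 4.0.16 (R 4.3.3), after a low count filter (filterByExpr, minimum count 10) and TMM scaling, for a robust quasi-likelihood test of diet alone. Its p-values were Benjamini-Hochberg adjusted over 15104 genes and called under 0.05. CPM are scaled to the library's total times TMM factors of 0.971 to 1.02. Standard errors are the log2 fold change over the root of the F statistic. The script was tested on simulated data, but passing that test did not require recovery of changes as small as those reported here. Ratios within pairs used counts with 0.5 added, and the pairs were chosen after values were seen. Exons shared with other genes were taken from GENCODE M21, where all 42 members had the coordinates of the table. Genes named with values per mouse are those called and 14 fixed ones: Syvn1, Sel1l, Herpud1, Derl1, Derl2, Derl3, Edem1, Edem2, Edem3, Os9, Erlec1, Vcp, Ufd1 and Nploc4. Values per mouse are also given for Hspa13, chosen after its values were seen. Of the further ERAD genes, up to 6 in each direction are named, 1 of those called is not reported here, and 1 of 53 symbols was not matched. Members and lists were chosen with earlier results of these data known. Alternatives were DESeq2 1.42.0, limma-voom (limma 3.58.1), a fit without robust moderation, RLE or upper quartile factors, a minimum of 5 CPM or none, protein-coding genes only, an acinar covariate, a mouse number block, and leaving out mice. Leave-one-out values of the pair ratios were added after seeing the data.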

Additional observations from a re-analysis of the deposited data

Results flagged for a closer look

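Each member's CPM was checked in each diet for 1 mouse standing apart, by the gap to its nearest neighbour relative to the group's range. This marked 5 of 84 groups, and chance marks about 1 in 20. Herpud1 in the cage 2 mouse, at 383 CPM, was below the other western diet mice, the nearest of which had 487. Herpud2 was also lowest in that mouse, at 65.7 CPM against 75.2 in the next. Fam8a1 was highest in it, at 75.7 CPM against 71.1. Ubxn8 was lowest in western diet cage 4 mouse 4, at 22.2 CPM against 24.1. Ngly1 was highest in chow mouse 4, at 43.3 CPM against 39.9.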

How the results depend on the processing

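The count of 7 ERAD genes called higher ranged from 4 to 11 when 1 mouse was left out and was 3 with mouse number as a replicate block. The count of 0 called lower became 1, Herpud1, with RLE factors (adjusted p = 0.0495), upper quartile factors (0.0481), a mean of at least 5 CPM (0.0339), DESeq2, limma-voom (0.0148), protein-coding genes only (0.0438), a fit without robust moderation (0.0122) and 2 mice left out together, and ranged from 0 to 1 with 1 mouse left out. The 8 further ERAD genes called higher were 4 to 14 with 1 mouse left out and 3 with the block. Over all genes, 796 called higher and 831 called lower became 342 and 499 with the block, and the former ranged from 376 to 921 with 1 mouse left out. With the block Edem2, Edem3 and Rnf185 were called, and Sel1l (adjusted p = 0.0666), Vcp (0.0625), Ubxn4 (0.0602) and Fam8a1 (0.0504) were not. Mouse numbers are counted within cages and do not pair the samples: deviations of same-numbered mice correlated at -0.129 to 0.0483 over 5 pairs, and 1 of 5 western diet mice correlated best with its own number. Of 882 values over 42 genes and 21 alternatives, 824 kept their direction and side of the threshold. The sign changed only in genes that were never called, namely Derl2, Erlec1, Erlin2 and Bag6, which were near 0, and Derl3, at -0.10 ± 0.18 (SE). With a minimum of 5 CPM Derl2 was at -0.00402, Erlin2 at -0.00837 and Bag6 at -0.00517. Erlin2 was at -0.000878 with upper quartile factors, -0.0149 with the block and -0.000145 with 2 mice left out. With 1 mouse left out Derl2 ranged from -0.016 to 0.067, Derl3 from -0.23 to 0.041, Erlec1 from -0.0011 to 0.092, Erlin2 from -0.0099 to 0.037 and Bag6 from -0.0040 to 0.033. The ratios Derl1 to Derl3 (-0.020 to 0.24), Derl2 to Derl3 (-0.034 to 0.20), Tmub1 to Tmub2 (-0.0013 to 0.090) and Os9 to Erlec1 (-0.055 to 0.043) also crossed 0. The causes were not tested.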

Other observations

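The UPRE was searched in the promoters of all tested genes with the same windows. It was in 18 of 655 genes called higher (2.75%), in 3 of 611 called lower (0.491%) and in 1.04% of all 11032 tested genes with a window. For the CRE the shares were 2.6%, 4.75% and 3.64%, and for the CARE 2.6%, 3.6% and 2.74%. The 2 ER stress elements were in 1 gene called higher and 1 called lower each. Their shares were 0.153%, 0.164% and 0.163% for ERSE, and 0.153%, 0.164% and 0.0816% for ERSE-II. These are descriptions with no test, and genes of 1 pathway are not independent.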
